A study of Mus musculus with 6 samples.

Results

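The Dlk1-Dio3 region of mouse chromosome 12 carries one of the largest groups of miRNA genes in the mouse genome. The miRNAs described here are those named on the array with any of 43 numbers assigned to this imprinted group, with any letter and either arm, which gave 92 miRNAs beside 1155 other mouse miRNAs measured. Of the 92, 45 were 5p arms, 46 were 3p arms and 1, miR-496b, had no arm in its name. By the array's probe positions and RefSeq, 91 lay between Dlk1 and Dio3, and miR-496b lay on chromosome 19. It was kept because the choice was made by name.

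mProx24, a line of mouse proximal tubular cells (strain C57B6 per the labels), was profiled on 1-colour Agilent miRNA arrays with 100 ng of total RNA per array and 1 array per condition. Control cells were kept at 20% oxygen. The array labelled High glucose differed by high glucose alone, whose concentration the labels do not give, and the array labelled High FFAs by 150 µM palmitate, a saturated free fatty acid, bound to 0.15% albumin for 9 h. Hypoxia was 1% oxygen for 12 h, Triple stimuli combined 1% oxygen, high glucose and palmitate, and Triple stimuli + Rapamycin added 0.4 µg/ml of rapamycin, an mTOR inhibitor, for 12 h before palmitate. The labels list PBS for the 3 arrays with neither palmitate nor its albumin. All 6 samples are of 1 cell line, and nothing in the labels says whether the cultures were separate preparations. The arrays at 20% oxygen filled the first row of the slide and those at 1% oxygen the second, so oxygen and slide row cannot be told apart.

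The Dlk1-Dio3 region is imprinted: its protein-coding genes, Dlk1, Rtl1 and Dio3, are expressed mainly from the paternal chromosome, and its long noncoding RNAs and miRNAs from the maternal one. The miRNAs are thought to be cut from long maternal transcripts that run through Meg3, Rian and Mirg, and those opposite Rtl1 can pair perfectly with its mRNA. They are best known from embryo, placenta and brain, where many are abundant, and they are far less abundant in most adult tissues.

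In these cells 2 of the 92 miRNAs were detected, miR-494-3p and miR-370-3p. The sequences of both hairpins' arms are printed because every detected level among the 92 belongs to them. The sequences are RefSeq's (GRCm38.p6), 5′ to 3′, with the seed, bases 2 to 8, in capitals.
miR-494-3p: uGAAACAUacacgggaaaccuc
miR-494-5p: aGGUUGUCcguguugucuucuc
miR-370-3p: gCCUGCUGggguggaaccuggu
miR-370-5p: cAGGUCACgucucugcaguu
All 4 lie on the plus strand. miR-494-3p is at chr12:109715367-109715388, outside the RefSeq spans of Rian and Mirg and between them. miR-370-3p is at chr12:109618305-109618326, inside the span of Rian, a long noncoding RNA. Their G and C content was 45.5% and 68.2%, against a median of 48.9% over the 88 members with a RefSeq mature sequence. Those 88 held 84 distinct seeds. The seeds of miR-494-3p and miR-370-3p were held by no other RefSeq mature mouse miRNA, so none of the undetected members with a sequence there shared a seed with a detected one. Of the 4 seeds held by more than 1 member, 1 joined miR-494-5p to miR-410-5p, and the other 3 joined miR-379-3p to miR-411-3p, miR-299a-3p to miR-299b-3p, and miR-376b-5p to miR-376c-5p.

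Related members share longer runs outside the seed, and the next lines show the longest run that miR-494-3p shared with any other of these 88 members in capitals, to show how alike the closest members are.
miR-494-3p: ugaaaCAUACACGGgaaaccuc
miR-154-3p: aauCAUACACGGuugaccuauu
miR-485-3p: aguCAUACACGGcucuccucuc
This run of 9 bases was in 3 of 1738 RefSeq mature mouse miRNAs, these 3. Of the 231 probes of members with a RefSeq sequence, 226 are complementary to the 3′ end of the mature miRNA, and those of miR-494-3p and miR-370-3p came in lengths of 14 and 15 bases. The probe sequences follow, with the base that the longer one adds in capitals.
miR-494-3p, 14 bases: gaggtttcccgtgt
miR-494-3p, 15 bases: gaggtttcccgtgtA
miR-370-3p, 14 bases: accaggttccaccc
miR-370-3p, 15 bases: accaggttccacccC
No other RefSeq mature miRNA matched any of these 4 probes over its full length. The longest partial match was 9 bases for the miR-494-3p probes, as in miR-6959-5p. It was 8 bases for the miR-370-3p probes, as in miR-7687-5p. Binding of other RNAs to these probes was not tested. miR-154-3p and miR-485-3p were at background on every array, with summed signals of -0.74 to -0.02 and -1.17 to -0.39 intensity units.

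The summed signal is the scanner software's background-subtracted value for a miRNA over its probes, in intensity units and not scaled between arrays. It is on another scale than the readings of single probes and spots. For miR-370-3p in Control it was 14.1, while its 2 probes read 23.6 and 26.3. A miRNA counted as detected where at least 0.5 of the spots of any of its probes were well above background. By this rule 2 of 92 members (2.17%) were detected on at least 1 array, where the share over all miRNAs of the array was 15.9% and over the 1155 others 17.0%. The software's own detection flag gave the same 2 members, against 19.2% over all miRNAs and 20.6% of the others. Both were detected on all 6 arrays by both rules (all miRNAs, 12.3% by the spot rule and 15.6% by the flag). Both were 3p arms, so 2 of 46 3p arms and 0 of 45 5p arms were detected. The share of each arm over all miRNAs was not counted, so nothing about arms is read from this. A looser count, in which a spot needs a signal significantly above background, gave 10 of 92 members against 34% of all miRNAs; it added miR-134-5p and miR-668-3p on all 6 arrays and 6 others on 1 to 3. The share over the cluster lay below the background share under each rule. In a bulk sample, fewer cells that make a miRNA and less of it per cell cannot be told apart.

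**Figure D1:**
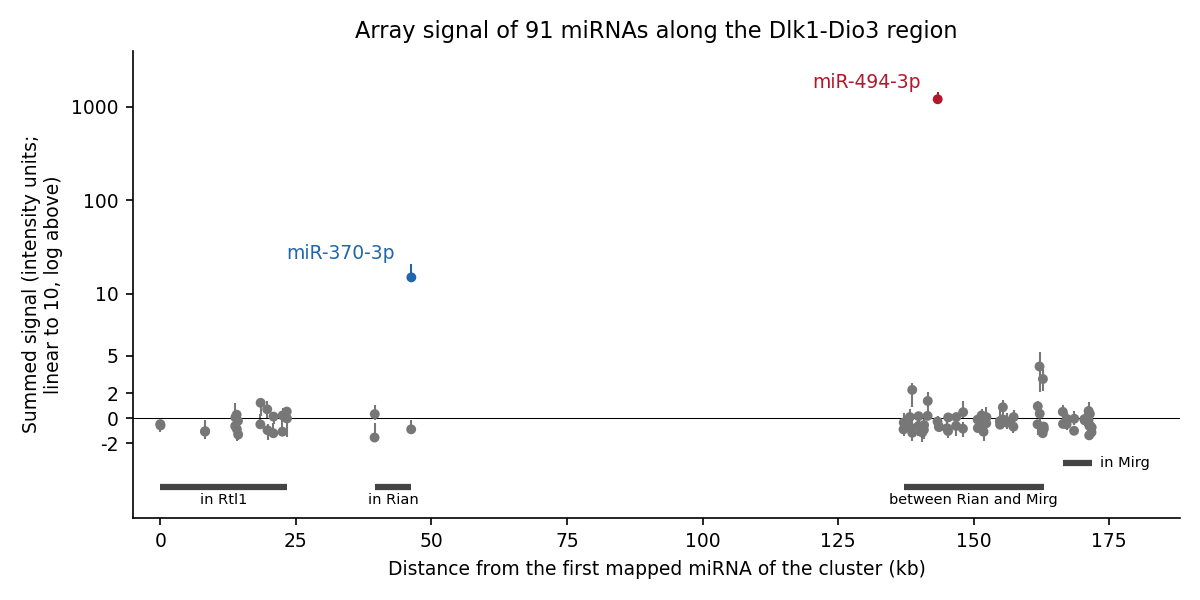
Summed signal of the 91 members mapped to the region (points, median of 6 arrays; lines, lowest to highest array) against distance along the chromosome in kb; the vertical axis is linear up to 10 intensity units and logarithmic above, and thick bars mark the extent of the members in each span. Points of different miRNAs come from different probes and are not amounts to be set against each other; miR-494-3p and miR-370-3p stand off the line at 0, and their neighbours lie on it.

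The 91 mapped members fell into a first group of 20 within the span of Rtl1, from miR-673-5p to miR-136-3p, then 4 in Rian, 51 between Rian and Mirg, from miR-379-5p to miR-485-3p, and 16 in Mirg, from miR-154-5p to miR-410-3p. The first group and the Mirg group had 0 detected members of 20 and of 16. The Rian group had 1 of 4, miR-370-3p, and the group between Rian and Mirg had 1 of 51, miR-494-3p. The 2 detected miRNAs were thus in different groups, with undetected members on both sides of each.

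miR-494-3p, a miRNA that has been studied in kidney ischaemia, had summed signals of 1178 in Control, 1183 in High glucose, 1235 in High FFAs, 1182 in Hypoxia, 1441 for Triple stimuli and 1340 for Triple stimuli + Rapamycin. The software's errors ran from 87.2 to 106. The 4 arrays with no or 1 stimulus lay within 1 error of each other, and the 2 arrays with the combined stimuli were the highest before scaling. All spots of both of its probes were well above background on every array. Its partner from the same hairpin, miR-494-5p, lay 11 bases away and was between -1.03 and 0.19 on the 6 arrays, with errors of 1.79 to 1.90. The next members along the chromosome were miR-679-5p, 198 bases away, at -1.11 to -0.32, and on the other side miR-329-3p, 1.804 kb away, at 0.16 to 2.10. None of these neighbours had a spot well above background.

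miR-370-3p, reported to act on Cpt1a, a gene of mitochondrial fatty acid uptake, was dimmer. Its summed signals were 14.1 in Control, 14.2 in High glucose, 14.7 in High FFAs, 15.3 in Hypoxia, 21.0 for Triple stimuli and 18.6 for Triple stimuli + Rapamycin. Errors were 2.09 to 2.37, so the intervals of Triple stimuli and Control, 1 error each way, did not meet, while those of the 4 lower arrays overlapped. Between 60% and 100% of the spots of its longer probe were well above background, lowest in High glucose and highest in Triple stimuli. Its shorter probe had 45% of spots well above background in High FFAs, and there the longer probe alone, with 75%, carried the detection. Its partner miR-370-5p, 15 bases away, was at -1.21 to -0.12, and the nearest other hairpin's arm, miR-341-3p, 6.728 kb away, was at -0.15 to 1.04.

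**Figure D2:**
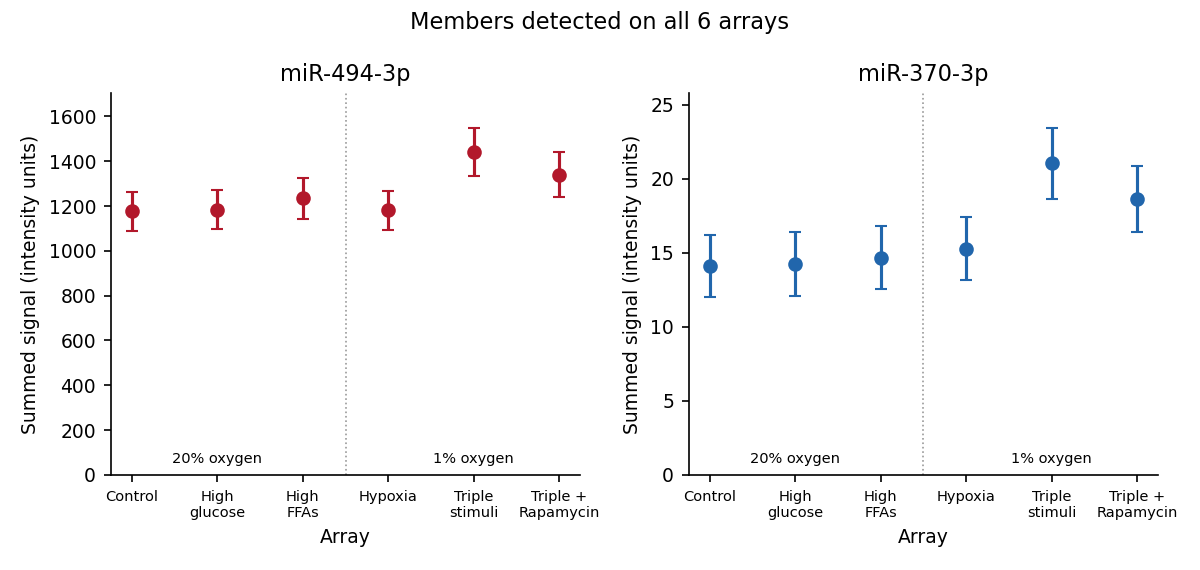
Summed signal in intensity units of miR-494-3p (left) and miR-370-3p (right) on each of the 6 arrays, before any scaling between arrays; bars are the software's error within an array, and the dotted line divides 20% from 1% oxygen. Triple stimuli is the highest array in both panels, at 1441 and 21.0, and axes start at 0.

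The arrays differed in overall brightness, so values were scaled to the 75th percentile of each array, taken over the 281 probes that every array detected. That percentile ran from 295 intensity units in Control to 382 in Triple stimuli + Rapamycin. On the scaled log2 scale, the level of miR-494-3p was 3.21 in Control, 2.92 in High glucose, 3.16 in High FFAs, 3.01 in Hypoxia, 3.25 for Triple stimuli and 3.01 for Triple stimuli + Rapamycin. The level of miR-370-3p was -3.49, -3.78, -3.56, -3.59, -3.15 and -3.51 in the same order. For both, High glucose was lowest and Triple stimuli highest. The highest and lowest arrays differed by less than 1.5-fold for miR-494-3p and by a little more for miR-370-3p. That pair, Triple stimuli and High glucose, was not among the comparisons made below.

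With 1 array a condition, a difference between arrays has no replicate check and no p-value, and its error covers the spread between spots within the arrays alone. The calls below required detection on the 2 arrays compared, a ratio of 1.5-fold or more, and a difference beyond 2 spot errors. None of the 7 comparisons called either member. In High glucose minus Control, 0 of 2 members were called where 6.79% of the 162 miRNAs tested were, and miR-494-3p differed by -0.28 (log2, spot error 0.02) and miR-370-3p by -0.29 (0.09). The median of all miRNAs in that comparison was -0.05. Without scaling the 2 differences were 0.0017 and -0.0024 and the median was 0.23. Relative to the median miRNA, miR-494-3p was at -0.26 to -0.14 in all 9 settings of scaling, background and probe summary, and miR-370-3p at -0.25 to -0.14 in the 8 in which it was detected on both arrays.

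The labels of these arrays are themselves in doubt. In the authors' deposited table of processed values, the High glucose column equals the scanner array deposited under High FFAs divided by 22.5, for both members, and the High FFAs column equals the array deposited under High glucose divided by 29.3, within 0.1%. The other 4 columns match their own arrays, by factors of 21.1 to 28.8. If the table's labels hold, the difference of miR-494-3p from Control was -0.05 in High glucose and -0.28 in High FFAs, and that of miR-370-3p was -0.07 and -0.29. In the authors' deposited table, the values of miR-494-3p were 55.9 in Control, 54.9 in High glucose, 40.4 in High FFAs, 52.0 in Hypoxia, 53.1 for Triple stimuli and 46.5 for Triple stimuli + Rapamycin. The authors' deposited table gives miR-370-3p as 0.669, 0.652, 0.485, 0.671, 0.775 and 0.647. It lists all 92 members, with these 2 above the lowest value of the column in all 6 columns and the other 90 at the lowest value in each. The deposited columns also differed as a whole. Among miRNAs above the lowest value in both columns, the median log2 difference from Control was -0.26 in High FFAs. It was -0.04 in High glucose, -0.03 in Hypoxia, -0.12 for Triple stimuli and -0.19 for Triple stimuli + Rapamycin.

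In High FFAs minus Control, labelled as the scanner files are, 0 members were called (all miRNAs, 2.58%), with -0.05 for miR-494-3p (spot error 0.02) and -0.07 for miR-370-3p (0.08). With the percentile taken over all probes they were 0.14 and 0.12, and the median of all miRNAs went from -0.03 to 0.15. Relative to the median miRNA, miR-494-3p ran from -0.016 to 0.019 over the settings and miR-370-3p from -0.042 to 0.0031. In Hypoxia minus Control, 0 members were called (1.85%). miR-494-3p was at -0.19 (0.03), where the median of all miRNAs was -0.11. Over the 9 settings of scaling, background and probe summary it was at -0.21 to -0.01. The value of -0.01, from its brighter, shorter probe without scaling, was smaller than the spot error. Also without scaling, its longer probe was at 0.034, and its summed signal was 1182 in Hypoxia and 1178 in Control. Its direction from Control thus depended on scaling and probe. Relative to the median miRNA, miR-494-3p was at -0.12 to -0.04 in all 9 settings. miR-370-3p was at -0.10 (0.08) and ran from -0.15 to 0.08.

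The combined stimuli gave the widest spread for miR-370-3p. In Triple stimuli minus Control, 0 members were called (5.59%), and miR-370-3p was at 0.34 (0.08), or 1.27-fold, a difference above that of 87.0% of the miRNAs tested there. Its value reached 0.57 without scaling, just under the limit of 0.58, and was -0.03 after normexp background correction. That correction added an offset of 50 intensity units, while the longer probe of miR-370-3p read 26.3 in Control and 39.1 for Triple stimuli. Relative to the median miRNA, the difference of miR-370-3p was above 0 in all 8 settings, by 0.013 to 0.34. miR-494-3p was at 0.05 (0.02), from -0.13 to 0.28 over the settings, but lay above the median miRNA by 0.03 to 0.12 in all 9. In Triple stimuli minus Hypoxia, 0 members were called (8.77%), at 0.24 (0.02) for miR-494-3p and 0.44 (0.07) for miR-370-3p. Both were above 0 under every one of the 9 settings, with ranges of 0.04 to 0.29 and 0.12 to 0.49. The median of all miRNAs was itself 0.10, and -0.10 to 0.15 over the settings. Relative to that median, miR-494-3p was at 0.14 to 0.19 and miR-370-3p at 0.07 to 0.35.

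Rapamycin before palmitate was compared with the combined stimuli alone. In Triple stimuli + Rapamycin minus Triple stimuli, 0 members were called (3.8%), at -0.24 (0.02) for miR-494-3p and -0.36 (0.10) for miR-370-3p, and both stayed below 0 under all 9 settings, from -0.29 to -0.01 and from -0.41 to -0.13. The median of all miRNAs was -0.07. In Triple stimuli + Rapamycin minus Control, 0 members were called (9.15%), and the differences were -0.19 (0.02) and -0.02 (0.11), and 0.18 and 0.35 without scaling, where the median of all miRNAs was 0.26. These comparisons share the Control or the Triple stimuli array, so a value on that array enters each of them.

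**Figure D3:**
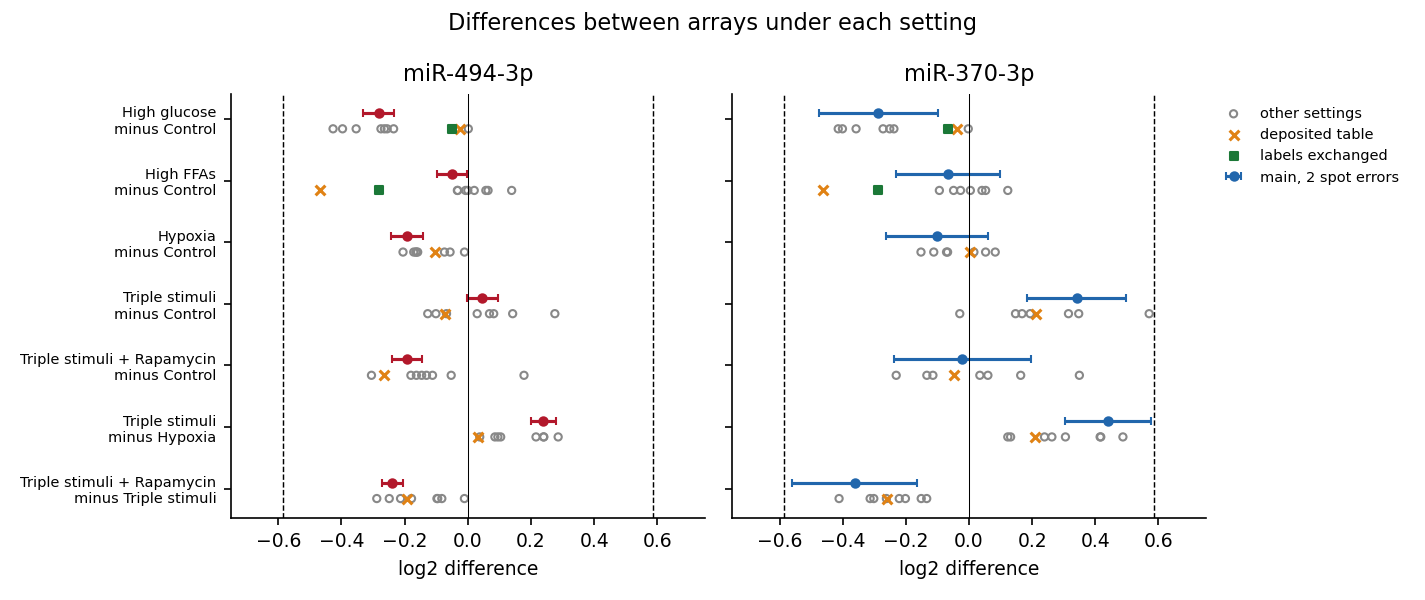
Difference between pairs of arrays for miR-494-3p (left) and miR-370-3p (right) on the log2 scale; filled circles are the main setting with 2 spot errors each way, open circles other settings of scaling, background or probes, crosses the authors' deposited table as labelled there, squares the exchange of the High glucose and High FFAs labels, and dashed lines 1.5-fold. No point lies beyond the dashed lines; in the first 2 comparisons the crosses and squares lie apart from the filled circles, and for miR-370-3p the points of Triple stimuli minus Control run from -0.03 to 0.57.

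The differences by the short and the long probe of each miRNA were compared before scaling. They came within 0.05 of each other on the log2 scale for miR-494-3p and within 0.11 for miR-370-3p, in all 7 comparisons. Small differences could change sign. miR-494-3p in Hypoxia minus Control was at -0.010 by the shorter probe and 0.034 by the longer. miR-370-3p in High glucose minus Control was at 0.027 and -0.0024. Elsewhere the signs were the same. The longer probe holds all bases of the shorter. For miR-370-3p the unscaled difference of Triple stimuli from Control was 0.58 by the probe of 14 bases and 0.57 by that of 15.

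For tests over samples, the 3 arrays at 1% oxygen were set against the 3 at 20%, with the other treatments left within each side. miR-494-3p had a mean log2 level of 3.09 ± 0.14 (SD, n = 3) at 1% and 3.095 ± 0.15 (SD, n = 3) at 20% oxygen, and miR-370-3p -3.42 ± 0.24 and -3.61 ± 0.15. The differences, -0.0024 (SE 0.11) and 0.19 (SE 0.14), had limma adjusted p-values of 0.9998 and 0.884 (Benjamini-Hochberg over the 154 miRNAs detected on all arrays), and the levels on the 2 sides overlapped for both. limma called 0 of 2 members and 0 of the 154 (0%), and at an unadjusted p under 0.05 it called 0 members and 7 of the 154 (4.55%). Sides that did not overlap were found for 11% of the 154.

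High glucose, with or without other stimuli, was on 3 arrays and absent from 3. Under the scanner files' labels, mean log2 levels with and without it were 3.06 ± 0.17 and 3.12 ± 0.10 for miR-494-3p, and -3.48 ± 0.31 and -3.55 ± 0.05 for miR-370-3p (SD, n = 3 each). The differences were -0.06 (SE 0.10, limma adjusted p 0.860) and 0.07 (SE 0.15, adjusted p 0.940). limma called 0 of 2 members and 15 of the 154 miRNAs (9.74%), and the 2 sides overlapped for both members (29.2% of the 154 had sides that did not). With the High glucose and High FFAs labels exchanged, the differences became 0.09 and 0.21, with limma adjusted p-values of 0.938 and 0.909, and limma called 0 miRNAs of any kind. These p-values measure the spread between these arrays, which includes the other treatments and may be technical as well. Triple stimuli and Triple stimuli + Rapamycin, on the side with high glucose, also had palmitate and 1% oxygen. Under the scanner files' labels, only High FFAs had palmitate on the other side and only Hypoxia had 1% oxygen.

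The other 90 members were detected on no array by either rule. Their summed signals lay between -1.93 and 5.33 intensity units over the 6 arrays, with software errors of 1.26 to 2.69. Their median was -0.58 in Control, -0.35 in High glucose, -0.50 in High FFAs, -0.11 in Hypoxia, -0.28 in the array of Triple stimuli and -0.36 with rapamycin. The medians of the 917 other undetected miRNAs were -0.35, -0.21, -0.39, -0.12, -0.14 and -0.23, in the same order. Members and the other undetected miRNAs shifted together, with the lowest medians in Control and High FFAs and the highest in Hypoxia for both. A value below 0 means a signal under the software's background estimate.

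Of the 90, 9 had a signal above 0 on all 6 arrays (all undetected miRNAs, 19.5%) and 36 a signal below 0 on all 6 (36.6%). A signal above its own error on all 6 arrays was seen for 2 members (5.16%), and above 2 errors on at least 1 array for the same 2 (5.56%), miR-134-5p and miR-668-3p. These 2 and the next 3 by median signal are described. Their mature sequences are printed because their median signals were the highest of the 90.
miR-134-5p: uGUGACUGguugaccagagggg
miR-668-3p: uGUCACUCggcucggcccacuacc
miR-299b-5p: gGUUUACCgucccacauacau
miR-329-3p: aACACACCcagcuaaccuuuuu
miR-431-3p: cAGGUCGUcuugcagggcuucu
The first 2 lie at chr12:109734145-109734166 and chr12:109734774-109734797 on the plus strand, neighbouring hairpins that the array measures with probes of 10 to 13 bases, among the shortest used for the cluster.

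miR-134-5p, known from the dendrites of neurons, had summed signals of 2.13 in Control, 5.33 in High glucose, 2.78 in High FFAs, 3.50 in Hypoxia, 4.82 for Triple stimuli and 4.98 for Triple stimuli + Rapamycin, with errors of 1.29 to 1.38. The 3 arrays labelled with high glucose were the 3 highest. With the High glucose and High FFAs labels exchanged, the High glucose value of 2.78 falls below that of Hypoxia, and the sides overlap. None of its spots was well above background on any array, so it has no level here, and a fold between its arrays is not given.

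miR-668-3p, which has been studied in kidney ischaemia, had summed signals of 3.97 in Control, 3.53 in High glucose, 3.00 in High FFAs, 2.83 in Hypoxia, 3.30 for Triple stimuli and 2.22 for Triple stimuli + Rapamycin, with errors of 1.27 to 1.36. Its range over arrays, from Rapamycin up to Control, was of the size of its errors.

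The signals of miR-299b-5p were 0.89 to 2.83 with errors of 1.80 to 1.92. Both of its probes also match miR-299a-5p, from the hairpin on the other strand, over their full length, and the 2 cannot be told apart. miR-329-3p, like miR-134 a neuronal miRNA induced by activity, was at 0.16 to 2.10, and miR-431-3p at 0.18 to 1.55. For all 3 the lowest array was High FFAs.

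**Figure D4:**
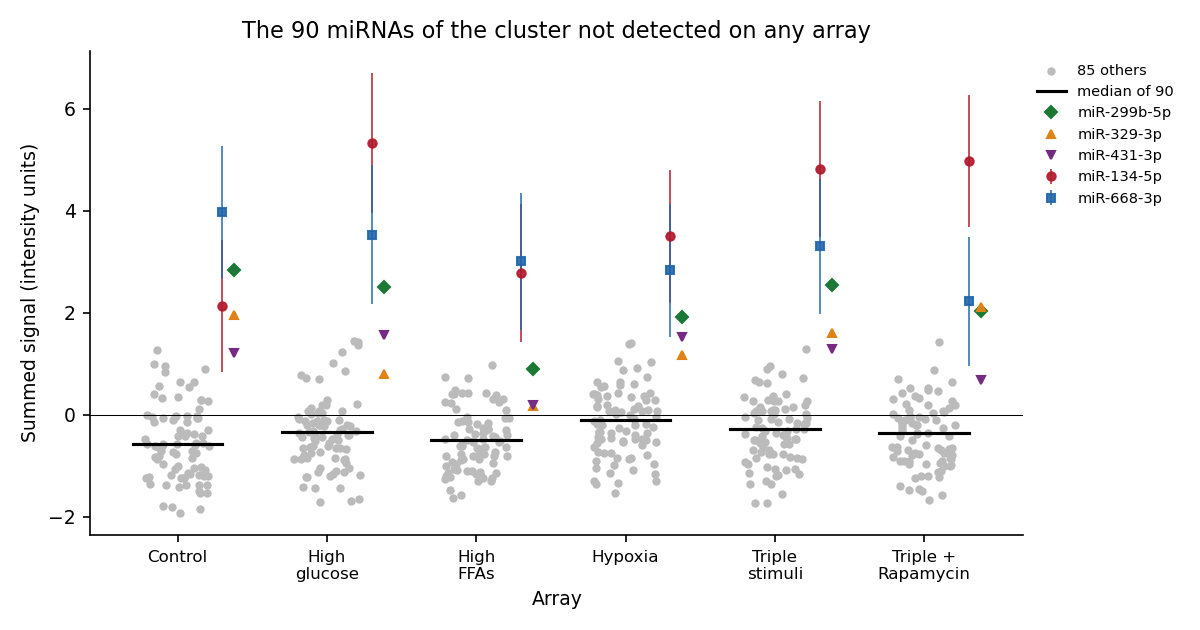
Summed signal in intensity units of the 90 undetected members on each array; grey points are 85 members, coloured marks the 5 with the highest medians (bars on miR-134-5p and miR-668-3p are the software's errors), and black lines the median of the 90. Medians lie below 0 on every array, from -0.58 to -0.11, and miR-134-5p and miR-668-3p lie above the grey points on all 6.

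Summed signals at 1% oxygen lay above all those at 20% for 11 of the 90 members (all undetected miRNAs, 9.63%) and below them for 1 (2.09%), miR-496a-3p. The 11 were spread along the region, from miR-341-3p in Rian to miR-369-5p and miR-496a-5p in Mirg. Signals on the 3 arrays with high glucose lay above the others for 5 members (8.34%), among them miR-134-5p and miR-496b, and below them for 6 (4.27%), among them miR-127-3p and miR-136-5p, which lie opposite Rtl1. With the High glucose and High FFAs labels exchanged, none of these 11 members had sides that did not overlap, and the counts were 0 higher (4.47% of all undetected miRNAs) and 4 lower (5.66%). Under the scanner files' labels, the shares for the members were 12.2% and 1.11% for oxygen and 5.56% and 6.67% for high glucose. These signals are unscaled and at background, and no level is read from them. The 3 arrays labelled with high glucose were also those with the highest 75th percentiles.

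Single spots well above background occurred among the undetected members, 24 spots in all, each flagged by the software as an outlier wherever it was bright. In 3 members, miR-376b-3p, miR-433-3p and miR-539-3p, 1 spot was bright on all 6 arrays, at 39.2 to 93.6, 42.5 to 144 and 30.0 to 89.1 intensity units. The summed signals of these 3 miRNAs, on another scale than the spots, were -1.18 to -0.34, -1.73 to -0.48 and -0.87 to 0.34.

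The array also carries miRNAs of the region that have other numbers. Of 23 such names, 3 were detected on all 6 arrays, miR-3072-5p, miR-770-3p and miR-1906, and the software's flag added miR-3544-3p. Summed signals were 29.6 to 47.9 for miR-3072-5p, 5.22 to 7.84 for miR-770-3p, 43.4 to 59.7 for miR-1906 and 7.84 to 9.10 for miR-3544-3p. The probes of miR-1906 are mapped by the array's annotation to the region and to chromosome X, and the sources cannot be told apart. None of the 3 was called in any of the 7 comparisons of arrays or by limma for oxygen or high glucose, whose largest difference was 0.24 for miR-3072-5p with high glucose (SE 0.09, adjusted p 0.222). By probe position as last mapped, which leaves miR-1906 out, 115 miRNAs of the array lay between Dlk1 and Dio3 and 4 were detected. A further 71 miRNAs had numbers assigned to other imprinted regions, among them the Sfmbt2 group. They were chosen by number, and their positions were not checked. Of these, 8 were detected on at least 1 array by the spot rule and 11 by the flag, and 0 were called in any of these comparisons.

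Detection ran from 162 to 194 miRNAs an array, no spot was saturated, and 4.26% to 4.44% of spots were flagged as outliers. Of 11 proximal tubule and kidney epithelium markers, 7 were detected, the 5 miR-30 members, miR-10a-5p and miR-10b-5p (the others were miR-204-5p and 3 miRNAs of the miR-192 and miR-194 families). Of 5 epithelial markers of the miR-200 family, 0 were detected. Among markers of other cells, 0 of 5 for fibroblasts and smooth muscle and 0 of 4 on the array for blood were detected. For neurons it was 0 of 2, for hepatocytes 0 of 1, and for muscle 1 of 3, miR-206-3p. The endothelial markers were not on the array under the names used.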

How the data were processed

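Spot values are the authors' deposited intensity values, background-subtracted by Agilent Feature Extraction 10.7.3.1 per the submitters' processing notes and not normalised between arrays per the file headers. The authors' deposited value table holds a linear signal per miRNA. Non-outlier spots of a probe were averaged, and the brightest probe stood for a miRNA. Arrays were scaled to the 75th percentile of probes detected on all arrays, floored at the lowest detected signal, and moved to log2. Calls need 1.5-fold and 2 spot errors. Arrays at 1% and 20% oxygen, and with and without high glucose, were compared with limma 3.58.1 (lmFit, eBayes, two-sided, Benjamini-Hochberg threshold 0.05) in R 4.3.3, tested on simulated data. Other scalings, normexp, summed signals, probe means, filters, detection rules, label exchange and leaving out arrays were tried, and, after seeing the data, the deposited table and the label exchange for undetected members. The members and lists were chosen with earlier results of these data known. Named members are those detected by either rule, the 5 undetected with the highest median signal, and members sharing a seed with a detected one. Sequences are RefSeq's; 4 members had none there (miR-376c-3p, miR-485-5p, miR-487b-3p and miR-539-3p). Probe sequences come from the files. No reference genome was used here.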

Additional observations from a re-analysis of the deposited data

How the results depend on the processing

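No member was called in any comparison of arrays that was made, or by limma, under any alternative run, including leaving out each array. Triple stimuli was not compared with High glucose, the pair of arrays furthest apart for miR-370-3p, by a little more than 1.5-fold after scaling. The count of 2 detected members was the same under the software flag, a spot share of at least 0.75 and without each array; counting a spot as positive where its signal was significantly above background, not well above it, gave 10 of 92, against 34% of all miRNAs. The sign of some small limma differences turned. For miR-494-3p and oxygen it was 0.011 with quantile normalization, 0.13 without scaling, 0.020 with normexp, 0.037 with summed signals and 0.0084 with the mean of probes, and -0.088 to 0.053 without 1 array. For miR-370-3p and oxygen it was -0.027 with normexp. For miR-370-3p and high glucose it was -0.038 with the percentile over all probes, -0.10 with the median, -0.12 with quantile normalization and -0.084 with normexp, and -0.10 to 0.22 without 1 array. For miR-494-3p and high glucose it was 0.14 without scaling and 0.093 with labels exchanged, and -0.16 to 0.0080 without 1 array. The lowest limma adjusted p of either member over all alternatives was 0.0971, for miR-494-3p and high glucose. Without scaling, the median of all miRNAs in Triple stimuli + Rapamycin minus Control was 0.26 (log2) in place of -0.11, and the members moved with it. The number of arrays and the dimness of miR-370-3p limit what could be seen. No paired analysis was possible because each condition has 1 array and the labels give no replicate numbers.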
